A study of Mus musculus with 2 samples.

Results

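Open chromatin at promoters with few CpG dinucleotides was examined in gastrocnemius, the large calf muscle, of mice. The genes were the protein-coding genes of chromosomes 1 to 19 in GENCODE M21 whose every coding transcript start had an observed-to-expected CpG ratio under 0.35 in the 500 bp on either side, counted in mm10. Of 20722 coding genes with such a start, 6449 met this limit and are called few-CpG genes here. A few-CpG gene was a member when a deposited peak overlapped 1 of these windows by at least 1 bp in both libraries, which left 866 genes. The members were therefore chosen by measured peaks, and their peak values are given as a description, with no test.

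DNase-seq sequences the ends of DNA that the enzyme DNase I releases from nuclei, so that open chromatin collects many cuts. The labels give 1 group, tissue of male B6CASTF1/J hybrid mice aged 10 days, with 2 libraries called biological replicates 1 and 2. Both libraries name 3 males and the same donor record, and the labels do not say whether the animals were pooled, so the spread between the libraries may be technical. Values are given for replicate 1 and then replicate 2. Replicate 1 had 123255 peaks and 310961 footprints, and replicate 2 had 150088 and 373154. The labelled tissue was checked on the muscle genes Ckm, Acta1, Myh4, Myh1, Mylpf, Tnnt3, Atp2a1, Myod1 and Des, and each had a promoter peak in both libraries. In bulk tissue, fewer cells with an open site and less opening per cell cannot be told apart.

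Most mammalian promoters lie in CpG islands, stretches that escape methylation, keep many CpG and are open in nearly every cell type. Promoters with few CpG are usually methylated and closed where the gene is silent. They tend to belong to genes of differentiated cells, may carry a TATA box that fixes the start of transcription, and rely on tissue-specific activators such as the myogenic bHLH factors, which bind E-boxes, and MEF2 in muscle. Within open chromatin, a footprint is a short run of bases that is cut less than its surroundings, as happens where a protein covers the DNA.

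The 100 bases before the start are shown for 7 members of the skeletal muscle lists and 5 other members, because they hold the footprints and the motif matches described below. Sequence is mm10, from the GRCm38 assembly, read 5′ to 3′ on the strand of the gene and ending at the base before the start. A footprint is called found in both libraries when the footprints of the libraries overlapped by at least 50% of the shorter one. Only the bases shared by both then count as inside it, and capitals mark these bases, so the footprint of a single library can reach further. The muscle promoters belong to creatine kinase (Ckm), muscle glycogen phosphorylase (Pygm), skeletal actin (Acta1), the fast calcium pump of the sarcoplasmic reticulum (Atp2a1), a ubiquitin ligase of muscle wasting (Trim63), the alpha subunit of the acetylcholine receptor (Chrna1) and the myogenic factor myogenin (Myog). The Ckm stretch is chr7:19410925-19411024, plus strand. The Pygm stretch is chr19:6384299-6384398, plus strand. The Acta1 stretch is chr8:123894752-123894851, minus strand. The Atp2a1 stretch is chr7:126463109-126463208, minus strand. The Trim63 stretch is chr4:134315020-134315119, plus strand. The Chrna1 stretch is chr2:73580339-73580438, minus strand. The Myog stretch is chr1:134289889-134289988, plus strand.
Ckm: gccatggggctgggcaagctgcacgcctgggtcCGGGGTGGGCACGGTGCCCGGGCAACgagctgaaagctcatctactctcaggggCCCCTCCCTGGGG
Pygm: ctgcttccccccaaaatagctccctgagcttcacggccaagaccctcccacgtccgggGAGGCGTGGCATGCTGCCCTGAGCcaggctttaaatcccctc
Acta1: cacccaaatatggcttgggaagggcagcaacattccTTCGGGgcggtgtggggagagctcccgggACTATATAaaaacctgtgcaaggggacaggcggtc
Atp2a1: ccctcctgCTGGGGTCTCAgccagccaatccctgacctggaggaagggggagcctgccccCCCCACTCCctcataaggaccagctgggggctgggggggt
Trim63: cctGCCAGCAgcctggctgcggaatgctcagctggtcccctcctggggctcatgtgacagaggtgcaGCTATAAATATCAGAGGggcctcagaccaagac
Chrna1: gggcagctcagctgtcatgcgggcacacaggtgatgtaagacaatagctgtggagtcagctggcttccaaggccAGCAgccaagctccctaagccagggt
Myog: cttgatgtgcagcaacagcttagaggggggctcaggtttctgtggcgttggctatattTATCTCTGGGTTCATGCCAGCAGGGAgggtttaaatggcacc

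The other promoters are those of the 2 members with the highest values, Cyp4f13, a cytochrome P450, and Tldc1, a TLDc-domain protein, and those of Lgals1 (a galectin, also among the highest) and of the matrix genes Col1a1 (a chain of type I collagen) and Mfap4 (a microfibril protein). The Cyp4f13 stretch is chr17:32947403-32947502, minus strand. The Tldc1 stretch is chr8:119778417-119778516, minus strand. The Lgals1 stretch is chr15:78926625-78926724, plus strand. The Col1a1 stretch is chr11:94936124-94936223, plus strand. The Mfap4 stretch is chr11:61485331-61485430, plus strand.
Cyp4f13: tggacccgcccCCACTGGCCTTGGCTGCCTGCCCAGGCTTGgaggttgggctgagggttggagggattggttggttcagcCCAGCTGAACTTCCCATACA
Tldc1: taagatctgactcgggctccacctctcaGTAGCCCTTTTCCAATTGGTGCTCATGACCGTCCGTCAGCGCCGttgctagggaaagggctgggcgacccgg
Lgals1: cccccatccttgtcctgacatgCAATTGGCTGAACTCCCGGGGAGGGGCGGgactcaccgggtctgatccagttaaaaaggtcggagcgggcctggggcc
Col1a1: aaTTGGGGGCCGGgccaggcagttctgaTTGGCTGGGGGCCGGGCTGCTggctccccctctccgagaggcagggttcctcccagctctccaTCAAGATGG
Mfap4: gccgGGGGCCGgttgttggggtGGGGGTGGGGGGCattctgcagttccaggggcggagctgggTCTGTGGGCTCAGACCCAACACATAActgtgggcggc

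In the Trim63 stretch the footprint nearest the start covered a TATAAA whose first base lies 31 bp before the start. Acta1 has TATAAA at the same distance, with its first bases at the edge of the shared bases of a footprint. Upstream of it are a GGGCGG at 60 bp, a GGAATG (MCAT element) at 70 bp and a CArG box at 97 bp. The CArG box is the site of serum response factor, and each match is given on whichever strand it was found. In Ckm a CCCACCC match at 65 bp lay inside a footprint. Chrna1 has E-boxes at 44, 73 and 92 bp, and none of them was in a footprint found in both libraries. In the Cyp4f13 stretch a CAGCTG at 19 bp lay inside a footprint, and in Tldc1 overlapping CCAAT matches at 58 and 61 bp did. Lgals1 has a footprint over a CCAAT at 76 bp and a GGGCGG at 55 bp.

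Few-CpG promoters were seldom open, and from a CpG ratio of 0.05 upward the share was higher in each richer class below the limit. A peak in both libraries was found at 67.2% of all coding genes. It was found at 91.6% of the 14273 genes that were not few-CpG and at 13.4% of the few-CpG genes. The last of these shares is the background for every count of list genes below. By classes of the gene's highest CpG ratio, the share was 1.84% of 272 genes under 0.05, 1.73% of 808 genes from 0.05 to 0.10, 9.02% of 1364 genes from 0.15 to 0.20 and 37.3% of 721 genes from 0.30 to 0.35. Beyond the limit it was 47.9% of 628 genes in the next class and 99.2% of 1302 genes at 0.95 and above, so 0.35 marks no step in these data. The members' median CpG ratio was 0.261, against 0.162 for the 5166 few-CpG genes without a peak in either library. GC content differed in the same order, with medians of 51.6% in members, 44.0% in few-CpG genes without a peak and 59.6% in the 13068 other open genes, and its part in the open share was not tested.

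**Figure D1:**
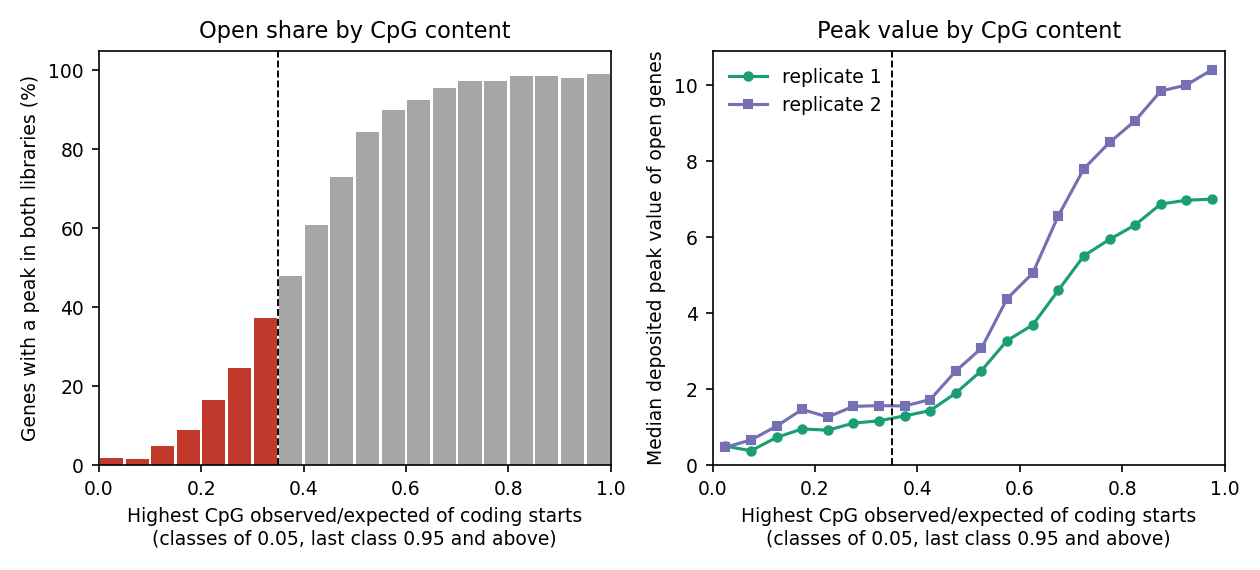
Left, share of coding genes with a promoter peak in both libraries (%) by the highest CpG observed-to-expected ratio of their coding starts; right, median deposited peak value of those open genes in each replicate. The dashed line is the limit of 0.35 and red bars are few-CpG genes: the share climbs from 1.84% to 37.3% below the limit and reaches 99.2% in the last class, while the median value stays under 2 in both replicates up to the class that ends at 0.45.

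Genes just under and just over the limit overlapped in value. Just under it were Nyap2, with values of 0.283 and 0.393, Cyb5r2, with 0.886 and 0.927, and Zfp457, with 3.12 and 3.81, all at a ratio of 0.3498. Just over it, and so not members, were Slc2a10, at 2.97 and 3.12, Gpr151, at 0.919 and 1.19, and 2010315B03Rik, at 2.49 and 3.88.

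Open few-CpG promoters had low peaks. The value deposited with each peak is a signal on a scale that allows for depth, and 1 step of that scale is taken here as 1 tag. The members' median was 0.992 in replicate 1 and 1.37 in replicate 2, with quartiles of 0.594 to 1.90 and 0.706 to 2.85, and the range ran from 0.174 to 15.8 and from 0.153 to 19.4. In tags, the median member peak rested on 182 and 234 and the lowest on 32 and 26. The other open genes had medians of 5.14 and 7.20. Only 35 of the 866 members, or 4.04%, lay above the median of the other open genes (geometric mean of both values), and 338 of them were among the 1394 lowest of all open promoters, while 2 were among the 1394 highest. Values under 1 in both libraries were found in 322 members and values over 5 in both in 37. The members stood on 857 distinct peaks in replicate 1, since 18 of them shared their peak with another member.

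Of the 20 highest members 1, or 5.00%, was on a skeletal muscle list, beside 75 of all 866 members. Cyp4f13 had values of 15.8 and 18.9, and Tldc1 had 13.3 and 19.4, and these were the members among the 1394 highest of all open promoters. Pold4, the small subunit of DNA polymerase delta, followed at 8.92 and 18.0, and Gstm7, a glutathione transferase, at 9.65 and 13.9. Angptl2, a secreted angiopoietin-like factor, stood at 7.14 and 16.8. The cytokine gene Il6 had 8.68 and 9.28, with its peak at a start downstream of the gene's first one. Hsd3b7, an enzyme of bile acid synthesis, had 8.92 and 9.33, Lgals1 had 6.79 and 10.5, and Fcgrt, the neonatal Fc receptor for immunoglobulin G, had 5.50 and 11.2. In each of these genes replicate 2 was the higher library. Scgb1c1, a secretoglobin, was the exception among the 20 highest, at 9.85 and 6.62.

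The peak was not always the gene's own. Among the 20 highest members, Ckm was the gene on a skeletal muscle list, with 6.06 and 9.60. In 2 others, Pgs1, at 7.16 and 9.73, and Cbln3, at 5.55 and 10.7, a start with a CpG ratio of 0.745 and 0.568 lay within 500 bp of the peak, in the case of Cbln3 that of its neighbour Khnyn. Hspb2, a small heat shock protein of muscle, had 6.10 and 10.8 with a peak midpoint 577 and 587 bp before the start, beyond the edge of the window and near the start of another gene. Opn1sw, the short-wave cone opsin, had 10.1 and 11.5, but at an annotated start far upstream, and no base of the window at its main start was listed as open in either library. The same held for Ins2, an insulin gene, at 1.47 and 1.89. In 84 members, 3 of them on a skeletal muscle list (Tnnt1, Myl2 and Colq), no base of that window was listed in either library, and the motif counts given below, which are made at the main start, include them. Over all members, the peak of at least 1 library lay nearest a start other than the gene's main one in 293 of 866. A CpG-richer start lay within 500 bp of the peak in 31 members. The share of 99.1% in the other open genes follows largely from the rule, since each of them has a coding start of its own at or above the limit.

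**Figure D2:**
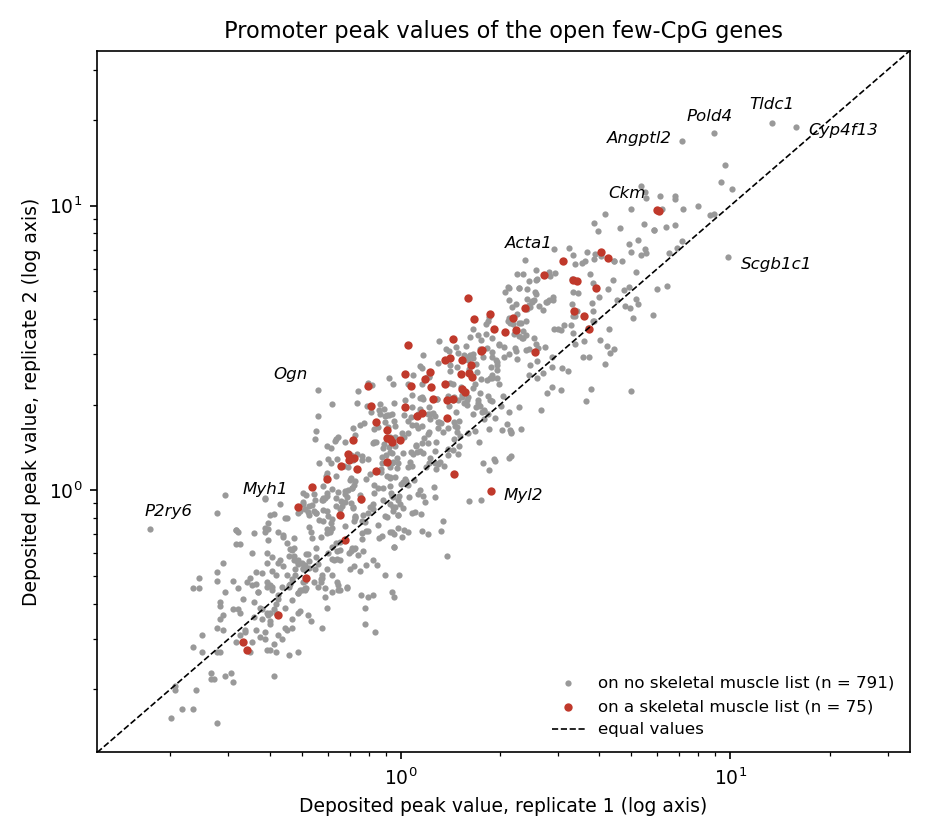
Deposited promoter peak value of each of the 866 members in replicate 1 (x) and replicate 2 (y), both on log axes, with the 75 members on skeletal muscle lists in red and the dashed line at equal values. Most red points lie above the line. They run from Ppp1r3a and Myoz2 near 0.3 to Ckm and Pygm near 6 and 9.6. The members with the highest values, Cyp4f13 and Tldc1, are not among them.

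Most few-CpG genes that build and drive the muscle fibre had an open promoter. Of the 101 few-CpG genes on the 9 skeletal muscle lists, 75 were members, a share of 74.3% (95% exact binomial interval 64.6% to 82.4%, counting error only) beside 13.4% of all few-CpG genes. Another 11 had a peak in 1 library only, which was replicate 2, and 15 had none. Of all few-CpG genes 4.43% had a peak in replicate 2 only. The lists were chosen with earlier results of these data known, which limits the share of 74.3% and the shares of the lists below. The 75 had median values of 1.36 and 2.33, beside 0.992 and 1.37 over all members. In 2 of the 75, Ckm and Pygm, the values were over 5 in both libraries.

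All 10 few-CpG genes of the fast contractile list were open. They included the fast troponins Tnni2, with values of 1.87 and 4.17, Tnnc2, with 1.64 and 2.76, and Tnnt3, with 1.05 and 3.23. Mylk2, the myosin light chain kinase of skeletal muscle, had 3.92 and 5.15, and Atp2a1 had 2.72 and 5.71. Mybpc2, the fast myosin-binding protein C, had 2.55 and 3.06, and Casq1, which stores calcium in the reticulum, had 1.36 and 2.86. Of the myosin heavy chains, Myh1, a fast adult form, had 0.489 and 0.874, and Myh8, the perinatal form, had 1.45 and 1.14. Myh8 was the fast gene with the lower value in replicate 2, and Myh1, with the lowest values of the list in both libraries, had no footprint found in both. Myh4, another fast myosin heavy chain, is not a member because its CpG ratio was 0.437, and it was open too, with values of 0.631 and 0.874.

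Few-CpG genes of the slow and developmental contractile lists were open in fewer cases. Among list genes that were not few-CpG, 6 of 6 slow, 2 of 2 developmental and 7 of 9 fast genes were open. Of 8 few-CpG genes of the slow list, the members were Tnnt1, slow troponin T, at 1.12 and 1.83, Myl2, the slow and cardiac regulatory light chain, at 1.88 and 0.992, and Myoz2, at 0.343 and 0.276. For Tnnt1 and Myl2 the peak lay at another annotated start, and no base of the window at the main start was listed as open in either library. The slow and cardiac myosins Myh6, Myh7 and Myh7b and the slow troponins Tnnc1 and Tnni1 had no promoter peak in either library. Of 6 developmental genes, Actc1, cardiac actin, was open at 1.57 and 2.21 and Mybph at 0.658 and 1.22. Myh3, the embryonic myosin, and Mybpc3 had no peak, and Chrng, the fetal receptor subunit, and Tnnt2 had one in replicate 2. With so few genes per list the intervals were wide, 69.2% to 100% for the fast, 8.52% to 75.5% for the slow and 4.33% to 77.7% for the developmental list, and no difference between lists was tested.

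The Z-disc and sarcomere core gave 17 of 22 few-CpG genes. By the geometric mean of both libraries Acta1 was the highest, at 3.11 and 6.41, followed by the ankyrin repeat genes Ankrd23, at 3.43 and 5.45, and Ankrd2, at 3.61 and 4.08, while in replicate 1 the sarcoglycan Sgca, at 3.74 and 3.68, was above them. Tcap, which caps titin at the Z-disc, had 0.995 and 1.50, and Ldb3, a Z-disc PDZ protein, had 1.76 and 3.11. Capn3, a muscle calpain, was the lowest at 0.517 and 0.493. Myom2 and Hspb7 had no peak, and Csrp3, Myom3 and Xirp1 had one in replicate 2. The list of protein turnover and ubiquitin ligase adaptors gave 10 of 12, led by Asb10, at 3.34 and 5.47, with Klhl38, at 1.65 and 2.49, and Trim63, at 1.52 and 2.56.

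Excitation and energy supply were also widely covered. Of 15 few-CpG genes of the triad, where the surface membrane meets the calcium store, 12 were members. Cacna1s, the voltage sensor, had 1.91 and 3.68, Jsrp1 had 2.39 and 4.37, Jph2, a junctophilin, had 2.19 and 4.01, and Clcn1, the chloride channel, had 1.36 and 2.37. Trdn, triadin, was low at 0.424 and 0.364. Pln and Sln, small inhibitors of the calcium pump, and Scn4a, the sodium channel of muscle, had no peak.

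In metabolism 15 of 17 few-CpG genes were open, with Ckm and Pygm, at 5.98 and 9.64, the highest. Cox7a1, a muscle isoform of cytochrome oxidase, had 4.04 and 6.85, Pgam2, the muscle phosphoglycerate mutase, had 1.38 and 2.07, and Mb, myoglobin, had 0.908 and 1.63. Ampd1 and Hfe2 had a peak in replicate 2. At the neuromuscular junction 4 of 7 were members. Rapsn, which clusters receptors, had 1.76 and 3.09, Chrna1 had 0.810 and 1.97 and the kinase Musk had 0.843 and 1.74, whereas the receptor subunits Chrnd, Chrne and Chrng had a peak in replicate 2, at 1.30 for Chrnd and 1.50 for Chrne. Of the 5 myogenic regulators with few CpG, Cdh15, a cadherin of satellite cells and myoblasts, had 4.25 and 6.55 and Myog had 1.62 and 2.58, and the fusion proteins Mymk and Mymx had a peak in replicate 2. Chrng counts on this junction list and on the developmental one. Myod1 was open, but its CpG ratio of 0.480 keeps it outside the rule.

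**Figure D3:**
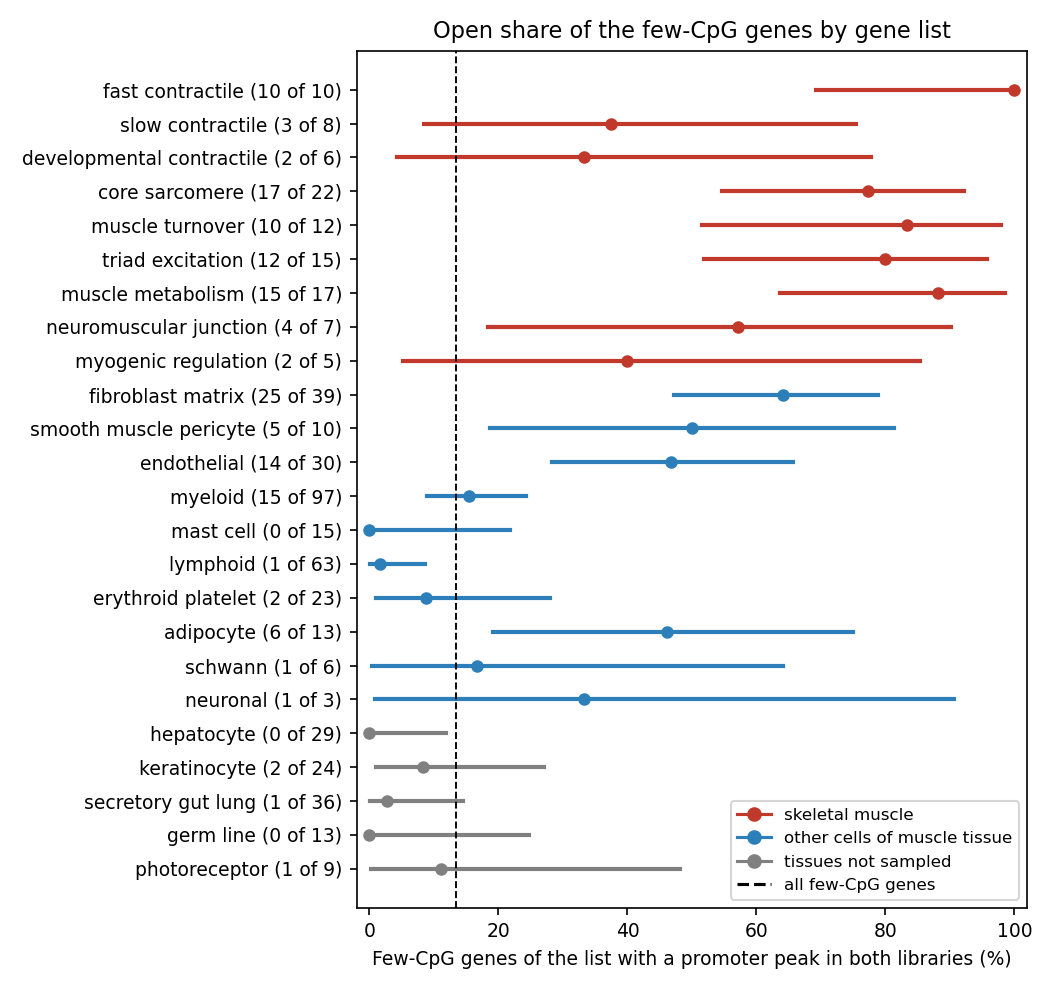
Share of the few-CpG genes on each list with a promoter peak in both libraries (%), with 95% exact binomial intervals as lines, members and few-CpG genes in brackets and the dashed line at 13.4% for all few-CpG genes. The fast contractile list is at 100%, fibroblast and matrix genes at 64.1%, and the mast cell, hepatocyte and germ line lists at 0.

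Promoters of other cells of the tissue were open too. Matrix and fibroblast genes gave 25 members of 39 few-CpG genes, or 64.1% (47.2% to 78.8%), with medians of 1.40 and 2.17. Col1a1 had 5.00 and 9.75, Col6a3 had 2.46 and 4.39 and Col3a1 had 2.44 and 3.15, all fibrillar or microfibrillar collagen chains. Pcolce, which helps to process procollagen, had 2.91 and 7.04, and Scara5, a scavenger receptor, had 4.32 and 3.03. Smooth muscle and pericyte genes gave 5 of 10, with Myh11, the smooth muscle myosin, at 4.44 and 3.13 and Acta2, smooth muscle actin, at 1.41 and 2.38. Endothelial genes gave 14 of 30, with low medians of 0.547 and 0.930. The junction protein Cdh5 had 0.870 and 1.19, the receptor Tek had 0.794 and 1.29, and Aqp1, a water channel, was the highest at 1.39 and 2.14.

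Lists of blood cell genes gave from 0% to 15.5% of their few-CpG genes as members, beside 13.4% of all few-CpG genes. Of 97 myeloid few-CpG genes 15, or 15.5% (8.92% to 24.2%), were members, close to the share of 13.4% among all few-CpG genes. Another 22 of the 97 had a peak in 1 library only, beside 417 of all 6449 few-CpG genes. Ccl2, a monocyte chemokine that other cells also make, was the highest at 2.35 and 3.63, while the macrophage genes Csf1r, C1qa and Cd68 had a peak in 1 library only, and Ptprc, Itgam and Adgre1 had none. Of 63 lymphoid genes 1 was a member, Cd28, at 1.49 and 1.34 with its peak 487 bp before the start, and of 15 mast cell genes none was. The erythroid and platelet list gave 2 of 23, Trim10 and Ermap, and its globin genes had no promoter peak. Adipocyte genes gave 6 of 13, with Plin1, whose peak lay at another start, at 3.06 and 2.25 and Plin4 at 2.06 and 3.20, and Adipoq and Retn without a peak. Of these 6 members, Gpd1 also counts on the muscle metabolism list and Fabp4 on the endothelial list. Among 6 Schwann cell genes the member was S100b, at 0.734 and 2.02, and among 3 neuronal ones it was Camk2a, a calmodulin-dependent kinase, at 2.12 and 5.19 at another start than the main one.

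Lists of tissues that were not sampled gave 4 members of 111 few-CpG genes, or 3.60% (0.990% to 8.97%). No hepatocyte gene of 29 and no germ line gene of 13 was a member. The 4 were Opn1sw and Ins2, whose peaks lay at other starts as described, Trp63, at 0.408 and 0.522, whose main start was likewise not listed as open, and Krt80, at 3.71 and 3.73.

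The libraries ranked the members alike, and replicate 2 had the higher value in most. Spearman's rho between the libraries was 0.907 over the 866 members, which share the 2 libraries and their depths and are not independent replicates, so no p-value is given. Each library's value is its own highest peak over the gene's starts, so the 2 values of a gene can come from different sites. Those of Sgca, Ak1, Ankrd23, Asb10, Asb2 and Il11ra1, among others, did. Peaks of both libraries overlapped in 792 distinct regions for the 866 members and in 65 for the 75 skeletal muscle genes. Genes with different sites are included in the rho and in the ratios below. The median log2 ratio of replicate 2 to replicate 1 was 0.39, and 73.2% of members were higher in replicate 2 (70.1% to 76.1%). For the 75 skeletal muscle genes the median was 0.75 with 89.3% higher (80.1% to 95.3%), for the 25 matrix genes 0.84 with 88.0%, and for the other open genes 0.44 with 82.5%. The largest ratios toward replicate 2 were those of P2ry6, a nucleotide receptor, at 0.174 and 0.734, of Ogn, a matrix proteoglycan, at 0.560 and 2.25, and of Ifi204 at 0.294 and 0.963. Toward replicate 1 they were those of Defb21, at 0.837 and 0.317, Gigyf1, at 1.38 and 0.587, and Olfr328, at 0.778 and 0.340. In each of these genes at least 1 of the values was under 0.8. The lowest members by geometric mean, Olfr641 at 0.201 and 0.158, Ms4a13 at 0.218 and 0.170 and Olfr596 at 0.234 and 0.170, were somewhat lower in replicate 2.

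Peaks of members were mostly centred near a start. The median width was 180 and 200 bp, beside 220 and 200 bp in the other open genes, and the midpoint lay a median of 17 and 26 bp before the nearest coding start, within 100 bp of it in 58.1% and 59.8% of members. Among other open genes 68.6% and 70.0% lay within 100 bp. The peak covered the start itself in 55.0% and 59.0% of members and in 74.5% and 75% of other open genes. A median of 27.8% and 34.3% of the window at the main start was listed as open, at a false discovery rate under 0.05, against 76.8% and 77.0% in other open genes. Acta1 had a wider peak, 360 and 320 bp, while the peak of Col1a1 was 160 bp wide in each library with midpoints 63 bp before and 17 bp after the start.

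Footprints were found at most members. In the windows of the members there were 2958 footprints in replicate 1 and 3349 in replicate 2, a median of 3 per gene in each, against a median of 7 in each in the other open genes. Per kb of listed bases the density was 8.74 and 8.73 against 9.35 and 9.21, so the lower count went with the smaller open area. A footprint was present in both libraries in 771 members, or 89.0%, and 653, or 75.4% (72.4% to 78.2%), had at least 1 footprint that was found in both. That share was 94.5% in the other open genes, 82.7% in the muscle genes and 35.7% in the 14 endothelial members (12.8% to 64.9%), whose peaks were low. In all, 1532 footprints were found in both libraries, with a median overlap of 11 bp.

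The members with the most such footprints were Hhatl, a relative of hedgehog acyltransferases with values of 7.12 and 7.51, and Plpp7, with values of 2.58 and 5.93, with 11 each. Il11ra1, a receptor for an interleukin, had 9, and Tmem176a, Ankrd23, Ak1, Krt80, Adamts4 and C1qtnf6 had 8 each. Among the other genes of the muscle lists Ckm and Asb10 had 6, Acta1 and Jph2 had 5 and Cox7a1 had 4. In 13 of the 75 none was found in both, among them Ucp3, Stac3, Smyd1, Cox6a2, Trdn and Myh1. Footprints gathered around the start: in 50-bp steps the fullest was the one just before it, with 13.9% in members and 12% in the other open genes, in replicate 1. These shares are of footprints with midpoints within 500 bp of the start, not of all footprints in the windows.

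**Figure D4:**
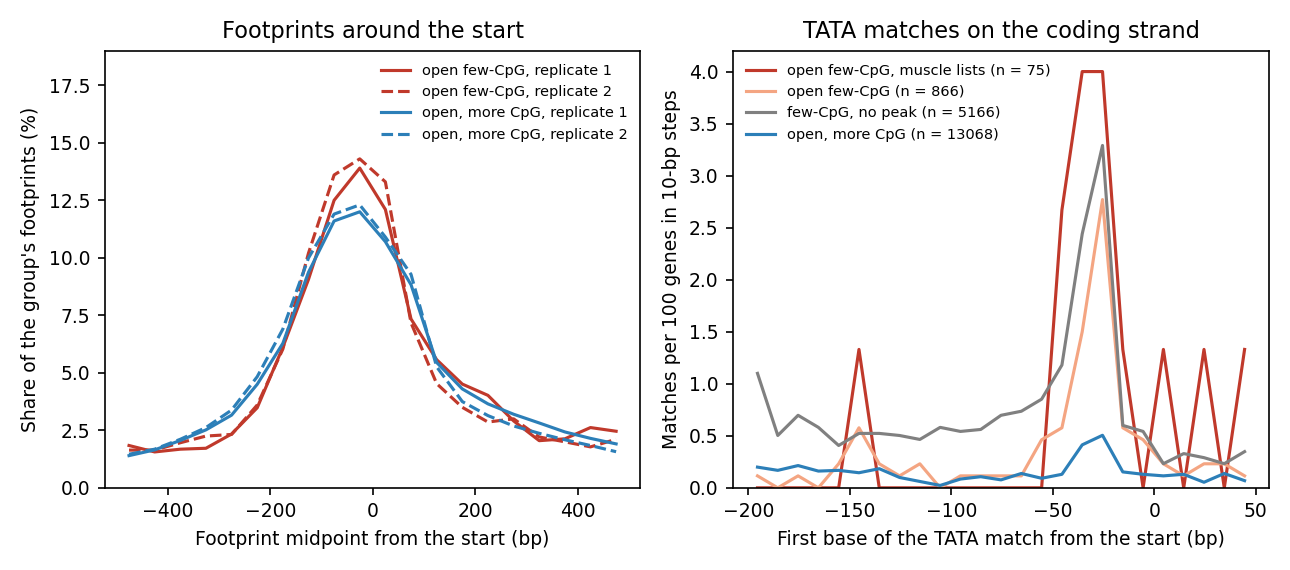
Left, footprints by the distance of their midpoint from the start, in 50-bp steps, for both replicates (solid and dashed). Values are shares (%) of each group's footprints within 500 bp of the start. Right, TATAAA matches on the coding strand per 100 genes by the distance of their first base from the start, in 10-bp steps. Footprints of open few-CpG genes peak just before the start (13.9% in replicate 1), and TATA matches of few-CpG genes gather 20 to 40 bp before it, with and without a promoter peak.

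TATA boxes were found at few-CpG promoters with and without a peak. A TATAAA on the coding strand that began 20 to 40 bp before the start was present in 37 members, or 4.27% (3.03% to 5.84%), in 5.77% of the few-CpG genes without a peak and in 0.926% of the other open genes, against 2.44% of all coding genes. Of the 75 muscle genes 6, or 8% (2.99% to 16.6%), had one: Acta1, Ankrd2, Trim63, Art1, Srl and Tnnt1. Other members with one were Myh11, Aqp1, Tnf, Ccl7, the angiotensin precursor Agt and the cytokine Il33. In 3 of the 37, Tnnt1, Il33 and Bpifb4, the window around that start was not listed as open in either library and the peak lay at another start. The start bases CA, a common initiator, stood at 25.5% of member starts, 25% of few-CpG starts without a peak and 16.2% of the other open ones.

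Motif matches were then counted on both strands from 250 bp before to 50 bp after the main start of each gene. CAGCTG, an E-box form that myogenic bHLH factors bind, was present in 28.2% of members (25.2% to 31.3%), 14.8% of few-CpG genes without a peak, 14.5% of other open genes and 15.3% of all coding genes. In the 75 muscle genes it was present in 42, or 56.0% (44.1% to 67.5%), and in the 791 other members in 25.5%. The broader E-box CANNTG, which includes CAGCTG, was present in 80.1% of members, 80.4% of few-CpG genes without a peak and 68.7% of all genes, and in 96.0% of the muscle genes. The MEF2 motif was present in 17 muscle genes, or 22.7% (13.8% to 33.8%), and in 2.53% of the other members, 5.81% of few-CpG genes without a peak and 2.90% of all genes. CArG boxes were rare, in 4 muscle genes and in 1.40% of all genes.

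Other motifs were more or less frequent in members than in few-CpG genes without a peak, and none of these differences was tested. CCCACCC, bound by Kruppel-like and SP factors, was present in 23.2% of members, 10.6% of few-CpG genes without a peak, 21.3% of other open genes and 18.6% of all genes. The GC box GGGCGG was present in 26.3%, 6.06%, 65.5% and 46.0%, and since it holds a CpG its share follows in part from the CpG limit. The word AGATAA, a site for zinc finger factors of the GATA family, was present in 10.0% of members, 19.2% of few-CpG genes without a peak and 9.83% of all genes, and TATAAA anywhere in the window and on either strand in 14.1%, 28.2% and 13.3%. Between members and few-CpG genes without a peak, these AT-rich words and the GC-rich ones went with the GC content given above. The word of Kruppel-like and SP factors did not follow it further. Its share was 21.3% in the other open genes and 23.2% in members, although the other open genes had the higher median GC content. The part of GC content in these shares was not tested. AGGAAGT, a site of ETS factors, was present in 2 of the 75 muscle genes, or 2.67% (0.325% to 9.30%), in 13.8% of the other members, in 12.3% of few-CpG genes without a peak and in 9.10% of all genes. TGGAAA, the core of NFAT sites, was present in 11 of the 25 matrix genes, or 44.0% (24.4% to 65.1%), in 27.3% of members, in 29.1% of few-CpG genes without a peak and in 15.5% of the other open genes, against 4146 of all 20722 genes. MCAT elements, GGAATG, differed little, at 15 of the 75 muscle genes, 18.5% of members and 16.6% of few-CpG genes without a peak, with 13.1% of all genes.

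**Figure D5:**
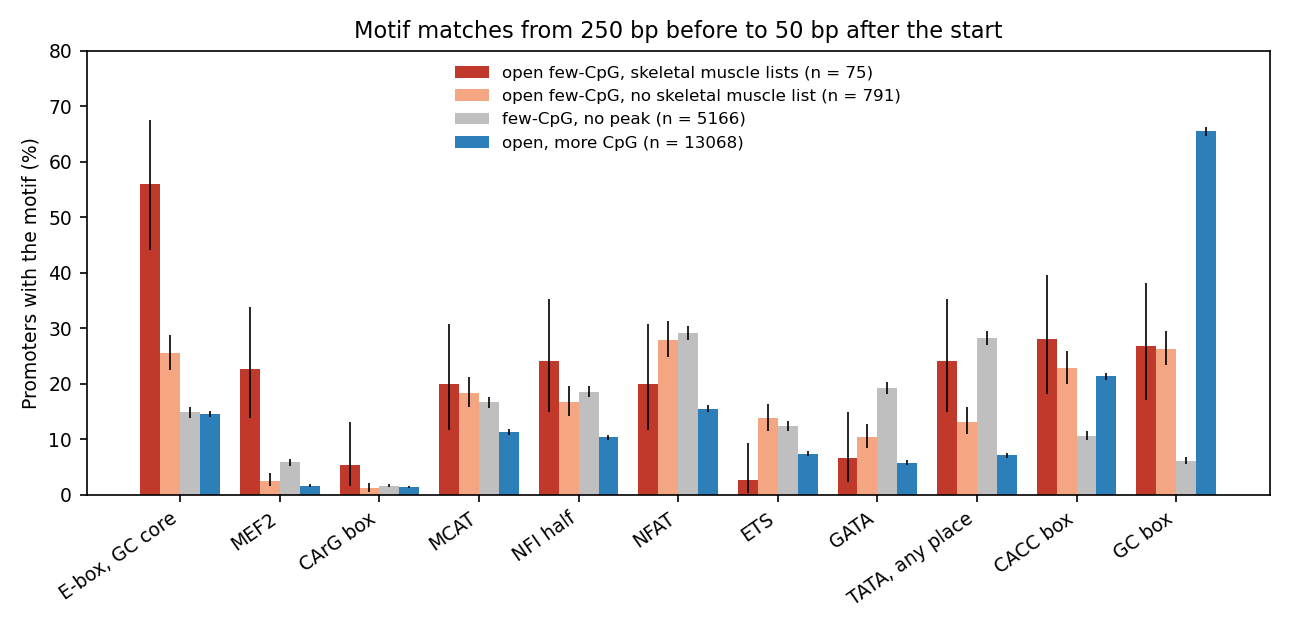
Share of promoters (%) with each motif in the 300 bp around the start, for members on and off the skeletal muscle lists, few-CpG genes without a peak and the other open genes, with 95% exact binomial intervals. The muscle genes stand highest for the E-box with a GC core (56.0%) and for MEF2 (22.7%), and the other open genes for the GC box (65.5%).

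Inside the peaks, footprints lay over some motifs more than over others. In 792 distinct regions where the peaks of both libraries overlapped, 12.6% of the members' bases were in the shared part of a footprint found in both. A motif counted as covered when at least 50% of its bases were in such a footprint. GC boxes were covered in 98 of 248 cases, or 39.5% (33.4% to 45.9%), and TTGGCA, an element of nuclear factor I sites, in 45 of 129, or 34.9% (26.7% to 43.8%). CCCACCC was covered in 22.1% of 122 cases and CCAAT in 18.2% of 209. In the muscle genes GC boxes were covered in 9 of 18 cases and CCCACCC in 4 of 14. TTGGCA was covered there in 2 of 16 and CCAAT in 0 of 25. As words in the promoter, TTGGCA was present in 150 of 866 members and 2699 of all 20722 genes, and CCAAT in 33.1% of members and 37.7% of all genes. CAGCTG was covered in 36 of 258, or 14.0% (9.97% to 18.8%), near the share of all bases, and in the muscle genes in 2 of 28, where 10.3% of bases were in such footprints. MEF2 was covered in 1 of 13 cases and AGATAA in 0 of 22, which allows a share of up to 15.4% by the exact interval. In the other open genes the shares were 45.4% for GC boxes, 39.2% for TTGGCA and 14.6% for CAGCTG, beside 21.2% of all bases. A match describes letters in the sequence, and which protein, if any, covered them was not measured.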

How the data were processed

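DNase-seq peaks, footprints and per-position false discovery rates were deposited for each of the 2 libraries, aligned to mm10 per the labels. The peak caller and the footprint caller were not given in the sources used here, and whether CAST alleles of the hybrid mapped less often to this reference was not analysed here.

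Peak values were deposited as a signal that the authors put on a depth scale: all values (100%) were whole multiples, within 0.05 of a step, of 0.00544 in replicate 1 and 0.00587 in replicate 2. The p-value type of number that the authors deposited per position is an FDR, and only positions under 0.05 are listed. Footprints all carry 0.01, so only positions were used. Peak values rest on tags that can hold PCR copies, so intervals cover counting error only.

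The members and gene lists were chosen with earlier results of these data known. Starts came from GENCODE M21, sequence from GRCm38. Of 20807 coding genes on chromosomes 1 to 19, 85 without a coding transcript start were left out. A gene's value in each library was its highest promoter peak there, in the wider of the 2 deposited sets, whether or not the libraries had the same site. The 24 lists held 894 symbols, of which 855 were annotated, and 22 motifs were searched. Named were the 20 highest members, members on lists (all on the muscle lists, up to 8 on the others), the 5 with most shared footprints, the 3 with the largest library ratio each way, the 3 nearest the CpG limit on each side and the 3 lowest. Other genes, named from the lists' genes without a peak in both libraries, the TATA matches, the gene families and the label check, were chosen after their values were seen. Shares have exact Clopper-Pearson intervals at 95%. No test was made, because the peaks chose the members and there was 1 group. Scripts were tested on simulated data (Python 3.11.15, numpy 2.4.6, pandas 2.3.3, scipy 1.17.1, matplotlib 3.10.9). Alternatives were the CpG limit, the window, the starts required, the peak set, the overlap rule, each library left out and, added after seeing the data, members with a CpG-richer start near the peak left out.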

Additional observations from a re-analysis of the deposited data

How the results depend on the processing

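The count and share of open few-CpG genes follow the limits chosen, while the members' values moved less. With a CpG limit of 0.25 there were 381 members, 7.85% of the few-CpG genes, 39 of them on the skeletal muscle lists, and with 0.45 there were 1513, or 19.8%. With 250 bp on each side the share was 10.8% and a footprint in both libraries was present in 84.9%. When any coding start under the limit sufficed, there were 1711 members, 15.6% of such genes, and 2.63% had TATAAA 20 to 40 bp before the start. In the stricter peak set the share was 9.20%, the median values were 1.48 in replicate 1 and 2.08 in replicate 2, and footprints were present in 96.5%. Leaving out 1 library, with the peak of the other alone deciding, gave 997 to 1152 members, a share of 15.5% to 17.9%, 75 to 86 muscle list genes and footprints in 88.5% to 88.7%. The median of replicate 2 was 0.910 without replicate 1, and the median of replicate 1 was 0.881 without replicate 2. More genes enter with 1 library, and these have low peaks. Without the 31 members that have a CpG-richer start near the peak, an alternative chosen after seeing the data, 835 members and 74 muscle genes were left, with medians of 0.979 and 1.36. In all, 43 of the values under these alternatives stayed within the spread set for them and 17 did not. That spread was wide for counts of members: 593 in the stricter peak set and 1152 without replicate 1 counted as within it, beside 866. No paired analysis was possible because there is 1 group. Depth limits the lowest members, whose peaks rest on 32 tags in replicate 1 and 26 in replicate 2.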

Other observations

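Gene families not described above differed in how many of their few-CpG members were open, beside 13.4% of all few-CpG genes, with no test made. Olfactory receptors, the largest such family, gave 11 of 1098, or 1.00%, and vomeronasal receptors 1 of 327, Vmn1r45. Collagens gave 8 of 14, among them the Col5a2, Col6a5, Col22a1, Col6a1 and Col24a1 genes, and the S100 calcium-binding proteins 5 of 9. Zinc finger genes named Zfp gave 14 of 45, or 31.1%, led by Zfp457. Cytochrome P450 genes gave 10 of 81, or 12.3%, near the background, Cyp4f13 being the highest. Kelch-like genes gave 4 of 5, of which Klhl38, Klhl31 and Klhl30 are on the muscle lists. By chromosome the open share of few-CpG genes ranged from 8.02% on chromosome 14 to 23.4% on chromosome 1.

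The 417 few-CpG genes with a peak in 1 library had low peaks, with a median of 0.359 for the 131 found in replicate 1 and 0.434 for the 286 found in replicate 2. Slc4a7 was the exception, with 4.85 in replicate 1 and no promoter peak in replicate 2. In replicate 2 the highest were Pdzd7 at 2.07 and Car9, a carbonic anhydrase, at 1.82.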
